A study of Mus musculus with 36 samples.

Results

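The genes described here are the potassium channel genes of the mouse autosomes, read for 2 histone marks in whole pancreas. They were taken from the GENCODE vM21 annotation (mm10) by symbol: protein-coding genes named Kcn followed by a letter and a number, Kcnab1 to Kcnab3 and the Kcnip genes, without Kcnq1. This gave 85 of 20807 protein-coding autosomal genes, of which 38 encode voltage-gated pore subunits, 15 inward rectifiers, 14 two-pore channels, 7 ion-activated channels (calcium- or sodium-activated ones and their pH- and voltage-gated relative Kcnu1) and 11 auxiliary subunits. The naming rule uses the symbols and no measured value, but the set was chosen with earlier results of these data known.

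The data are ChIP-Seq peak lists for trimethylated lysine 27 of histone H3 (K27me3) and trimethylated lysine 4 (K4me3), one of each for every mouse, from 6 mice aged 2 to 4 months. All mice received tamoxifen by oral gavage, and pancreata were taken 22 days after the first dose. The 2 genotypes, with 3 mice each, were control, labelled Wildtype (in the study, C57BL/6 mice or mice with Mist1creERT alone), and Mist1creERT/+ mice with a deletion of the SET domain of Ezh2 (Ezh2ΔSET). Ezh2 is the methyltransferase that writes K27me3, and its SET domain is the catalytic part. The Mist1 driver recombines in acinar cells, so other cells of the pancreas keep an intact Ezh2, and whole tissue was used: at every gene below, fewer cells with a mark and less of the mark in each cell cannot be told apart.

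Potassium channels let potassium ions leave the cell or, for the inward rectifiers, pass more easily inwards, and so set the resting membrane potential and end electrical signals. Voltage-gated channels open on depolarisation and are best known from neurons and muscle, two-pore channels carry background currents, and in the exocrine pancreas potassium channels keep the driving force for secretion of chloride and fluid. K27me3 is laid down by Polycomb complexes at silenced developmental and neuronal genes, K4me3 marks active or activatable starts, and a start with both is called primed.

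A gene was scored as having a mark in a mouse when a deposited peak overlapped, by at least 1 bp, the window of 3 kb on either side of any of its annotated transcript starts. The lists give no height or read count, so depth is unknown and each value is a presence, a number of covered bases or a position. The narrowest K27me3 peak spanned 5001 bp and the narrowest K4me3 peak 501 bp, so shorter marked stretches are not seen. A peak at the start of a neighbouring gene is counted too where it reaches the window.

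One control library stood apart. Control 2 had the fewest autosomal peaks of the 6 mice for K27me3, 15782 against 23052 to 28783 elsewhere, and for K4me3, 16912 against 23593 to 25220. Yet its K27me3 peaks reached 22.9% of all genes, against 9.03% to 13.0% in the other mice, and 11.7% of them touched a K4me3 peak, against 0.693% to 1.97% elsewhere. It also carried K4me3 at all 4 immune marker genes, against 1 or 2 of 4 in the other mice. The 9 acinar marker genes had K4me3 in every mouse, and among them K27me3 was seen only in control 2, at 3. The islet markers had K4me3 at 1 or 2 of 9 and the endothelial markers at 0 or 1 of 3. The duct markers had K4me3 at 3 of 5 in control 2 and 5 of 5 elsewhere, and K27me3 at 2 against 0 or 1. The neural and Schwann markers had K27me3 at 3 of 5 in control 2 and 1 of 5 elsewhere. Whether the label and tissue of this library are as stated was not tested. What its control values stand for is thus uncertain. The main values that rest on control 2 are given with and without it, and the part of these differences in the results was not tested.

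Sequence just before the start is shown for 8 members, chosen to cover each pattern described below: Kcnd2 and Kcnh5 with K27me3, Kcnh8 with both marks, Kcnj2 and Kcnk5 with K4me3, Kcnk16 with neither, and Kcnh7 and Kcnj3, whose K4me3 calls differed between genotypes. Each is the 250 bases before the RefSeq start on GRCm38.p6, written 5′ to 3′ on the gene's strand, with every CG dinucleotide in capitals. CG reads the same on both strands. The positions are chr6:21215096-21215345 (+) for Kcnd2, chr12:75177333-75177582 (-) for Kcnh5, chr17:52602459-52602708 (+) for Kcnh8, chr11:111065914-111066163 (+) for Kcnj2, chr14:20181783-20182032 (-) for Kcnk5, chr14:20269270-20269519 (-) for Kcnk16, chr2:63184288-63184537 (-) for Kcnh7 and chr2:55435720-55435969 (+) for Kcnj3.
Kcnd2: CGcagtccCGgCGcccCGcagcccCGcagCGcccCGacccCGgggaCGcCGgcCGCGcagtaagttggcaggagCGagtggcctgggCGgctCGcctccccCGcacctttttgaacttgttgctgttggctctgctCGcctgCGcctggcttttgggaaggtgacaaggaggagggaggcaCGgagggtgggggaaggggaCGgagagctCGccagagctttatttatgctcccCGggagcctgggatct
Kcnh5: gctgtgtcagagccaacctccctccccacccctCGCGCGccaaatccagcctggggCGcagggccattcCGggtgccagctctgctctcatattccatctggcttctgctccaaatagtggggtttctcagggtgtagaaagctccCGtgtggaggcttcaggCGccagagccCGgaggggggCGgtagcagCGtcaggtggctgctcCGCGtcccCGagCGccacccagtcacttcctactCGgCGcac
Kcnh8: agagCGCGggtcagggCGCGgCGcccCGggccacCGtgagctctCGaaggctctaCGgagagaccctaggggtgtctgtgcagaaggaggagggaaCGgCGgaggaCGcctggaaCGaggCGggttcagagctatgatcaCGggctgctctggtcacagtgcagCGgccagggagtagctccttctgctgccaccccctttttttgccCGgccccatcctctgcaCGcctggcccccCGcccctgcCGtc
Kcnj2: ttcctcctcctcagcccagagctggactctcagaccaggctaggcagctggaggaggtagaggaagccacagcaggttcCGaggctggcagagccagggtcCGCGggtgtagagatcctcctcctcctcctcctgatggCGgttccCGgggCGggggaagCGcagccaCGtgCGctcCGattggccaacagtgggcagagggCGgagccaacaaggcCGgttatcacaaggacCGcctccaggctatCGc
Kcnk5: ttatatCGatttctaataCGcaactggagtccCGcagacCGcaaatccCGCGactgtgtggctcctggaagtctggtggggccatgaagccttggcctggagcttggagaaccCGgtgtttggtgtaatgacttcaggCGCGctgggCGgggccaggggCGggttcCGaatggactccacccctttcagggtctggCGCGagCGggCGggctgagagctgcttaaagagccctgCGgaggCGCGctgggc
Kcnk16: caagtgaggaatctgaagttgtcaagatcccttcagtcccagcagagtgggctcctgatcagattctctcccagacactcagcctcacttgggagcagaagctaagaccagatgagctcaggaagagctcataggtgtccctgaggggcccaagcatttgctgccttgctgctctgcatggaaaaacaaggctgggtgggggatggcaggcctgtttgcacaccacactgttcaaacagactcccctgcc
Kcnh7: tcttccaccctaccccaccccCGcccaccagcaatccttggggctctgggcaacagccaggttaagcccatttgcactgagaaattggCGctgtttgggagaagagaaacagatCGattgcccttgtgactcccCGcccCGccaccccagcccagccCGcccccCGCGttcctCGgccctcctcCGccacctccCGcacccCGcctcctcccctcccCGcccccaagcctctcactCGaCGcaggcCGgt
Kcnj3: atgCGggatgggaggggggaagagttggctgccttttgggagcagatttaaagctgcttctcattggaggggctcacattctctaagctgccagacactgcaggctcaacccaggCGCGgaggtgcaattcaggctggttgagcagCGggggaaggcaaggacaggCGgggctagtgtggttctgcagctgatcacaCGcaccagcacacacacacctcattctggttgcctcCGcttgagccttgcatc

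The counts of CG in these stretches ran from 22 in Kcnd2, 20 in Kcnh8, 19 in Kcnk5, 16 in Kcnh5 and Kcnh7, 14 in Kcnj2 and 7 in Kcnj3 to 0 in Kcnk16. Of 31396 autosomal promoters of this length, 15.3% held at least 22 and 7.64% held none. Over the 87 promoters of the 62 members matched in the RefSeq table the median was 7, against 6 over all promoters, and at least 1 CG stood in 96.6% against 92.4%. A K27me3 peak overlapped the stretches before Kcnd2, Kcnh5 and Kcnh8 in 5 of 6 mice each. A K4me3 peak overlapped those before Kcnd2 and Kcnh8 in 2 of 6 mice each and that before Kcnh5 in none. The stretches of Kcnd2 and Kcnh8 thus did not differ in these counts. No K27me3 peak reached those before Kcnj2 and Kcnk5, which K4me3 covered in 6 of 6 mice. The stretch before Kcnk16, without CG, had neither mark in any mouse. Beyond these 8 the marks did not follow the CG count simply: a stretch of Kcnk1 without CG had K4me3 in 5 of 6 mice, and stretches of Kcnk2 with 28 and 27 CG had neither mark in any mouse.

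Over the 6 mice a mean of 25.2 members (29.6%) carried K27me3, against 13.4% of all genes, and 37 members (43.5%) carried K4me3, against 63.4%. Potassium channel genes were thus marked by K27me3 more often and by K4me3 less often than genes at large, a count given without a test. In the mice other than control 2, K27me3 was at 12.9% to 32.9% of members, against 9.03% to 13.0% of all genes. K27me3 was seen in no mouse at 32 members (37.6%, against 68.9% of all genes). It was seen in all 6 mice at 7 (8.24%, against 3.79%), which are Kcnq3, Kcnd2, Kcnc2, Kcnh8, Kcnv1, Kcnab1 and Kcnip4. Without control 2, 54 members (63.5%, against 81.1%) had K27me3 in no mouse and the same 7 had it in all 5 (8.24%, against 4.90%). K4me3 was seen in no mouse at 38 members (44.7%, against 32.7%) and in all 6 at 25 (29.4%, against 58.8%). Without control 2 these were 41 (48.2%, against 34.0%) and 33 (38.8%, against 61.6%). Genes with a mark in at least 5 of 6 mice are called frequent for it below.

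By that measure 11 members (12.9%, against 5.46% of all genes) were frequent for K27me3 alone, 6 (7.06%, against 1.61%) for both marks and 27 (31.8%, against 60.5%) for K4me3 alone. Neither mark was found in any mouse at 15 (17.6%, against 17.1%), and the other 26 (30.6%, against 15.3%) lay between. The voltage-gated subunits held 6 of the 11 members with K27me3 and 3 of the 6 with both, the inward rectifiers 3 and 1, the two-pore channels and the auxiliary subunits 1 and 1 each, and the ion-activated channels none. Without control 2, with 4 of the other 5 mice as the threshold, 10 members were frequent for K27me3, 7 for both marks and 27 for K4me3, and 21 had neither.

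**Figure D1:**
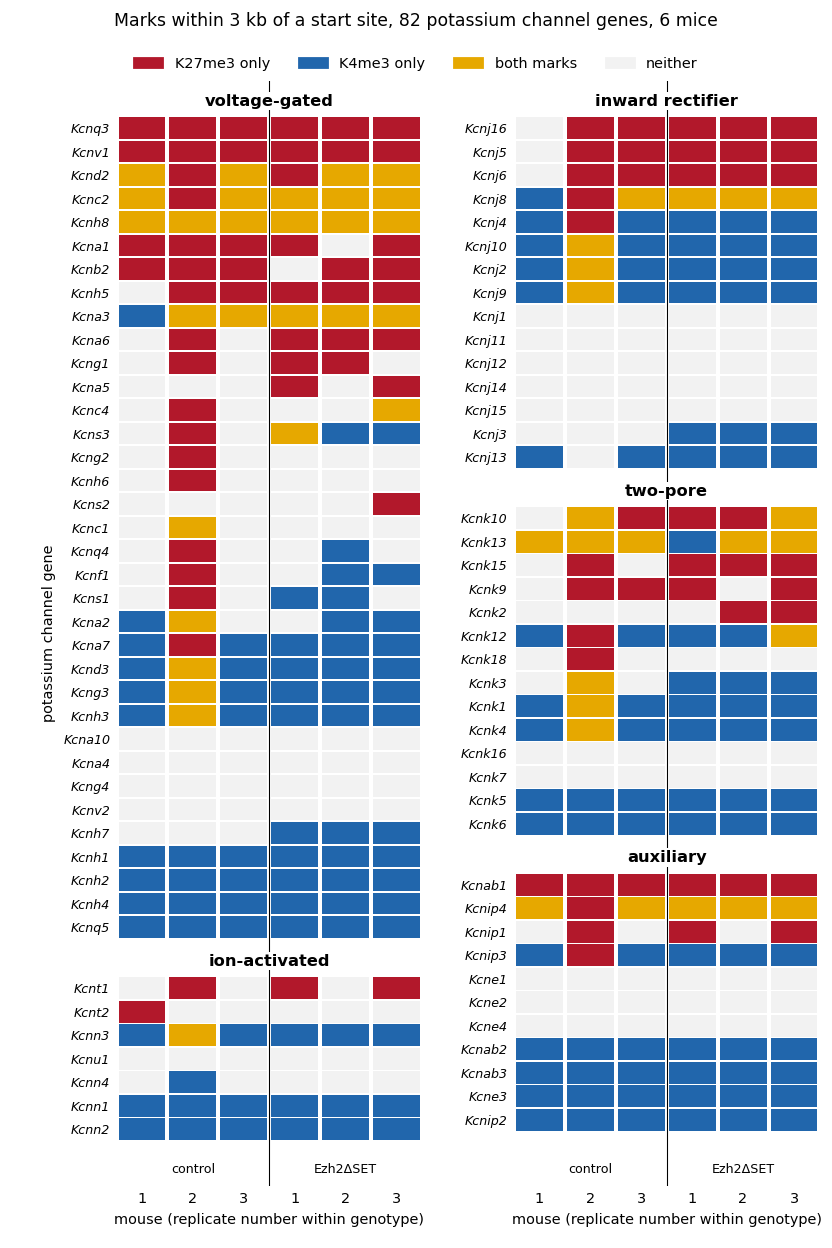
Each row is one of 82 of the 85 potassium channel genes, grouped by family, and each column one of the 6 mice; colour gives K27me3 only, K4me3 only, both or neither within 3 kb of a transcript start. Kcnh8 has both marks in all 6 mice, 15 genes have neither mark in any mouse, and the column of control 2 is the one with the most K27me3.

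Among the voltage-gated pore subunits, Kcnq3, a subunit of the M-current that damps repeated firing of neurons, had K27me3 in 6 of 6 mice. K4me3 was found at Kcnq3 in no mouse. Of the Kcnq3 windows, 12593 bp in total, K27me3 covered 4982, 6592 and 6513 bp in the control mice and 6592 bp in each Ezh2ΔSET mouse. The widest of these peaks ran from 9597 bp in control 1 to 28505 bp in control 2. K27me3 at Kcnq3 reached well past the upstream edge of the window around the 5′ end in every mouse, and the genotypes overlapped.

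Kcnd2, which carries the fast transient current of neuronal dendrites, also had K27me3 in 6 of 6 mice. Its K27me3 covered 649, 4747 and 3475 bp of the 6001 bp window in control and 5179, 3178 and 3309 bp in Ezh2ΔSET. Control 1 was the lowest, and the groups overlapped. A K4me3 peak was present as well in 2 control and 2 Ezh2ΔSET mice, and in 3 of these 4 the marks touched.

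Kcna1 and Kcna6, delayed rectifiers of axons whose starts lie 90.4 kb apart on chromosome 6, had K27me3 in 5 and 4 mice and K4me3 in none. Kcna5, 109.4 kb from Kcna1 and best known from heart and vascular muscle, had K27me3 in 2 mice, both Ezh2ΔSET. Kcna6 was covered over 0, 5401 and 0 bp in control and 3694, 5330 and 3446 bp in Ezh2ΔSET. Control 2 alone of the controls carried the mark at Kcna6, so all 3 Ezh2ΔSET mice exceeded controls 1 and 3 and lay below control 2.

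Kcnv1, a silent subunit that forms channels only with other subunits, had K27me3 in 6 mice, over 6094, 4698 and 5269 bp of a 6094 bp window in control and 5792, 6094 and 6094 bp in Ezh2ΔSET. Kcnh5, a channel of the ether-a-go-go group found in brain, and Kcnb2, a slow delayed rectifier, had it in 5 mice each. At Kcnh5 it covered 0, 6001 and 4162 bp in control and 6001, 4987 and 5728 bp in Ezh2ΔSET. The mouse without K27me3 differed from gene to gene: control 1 for Kcnh5, Ezh2ΔSET 1 for Kcnb2 and Ezh2ΔSET 2 for Kcna1. K4me3 was seen at none of these genes. Of the remaining voltage-gated genes, Kcng1, a silent subunit, had K27me3 in 1 control and 2 Ezh2ΔSET mice, and Kcnc4, a fast delayed rectifier, in 1 of each.

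K4me3 without K27me3 in any mouse marked Kcnh1, Kcnh2, Kcnh4 and Kcnq5 in 6 of 6 mice. Kcnh2 encodes the rapid repolarising current of the heart, Kcnh1 and Kcnh4 are its relatives of the brain, and Kcnq5 is a further M-current subunit. At Kcnh1, K4me3 covered 3166, 799 and 3202 bp in control and 3173, 3137 and 3243 bp in Ezh2ΔSET, and control 2 was the one low value. At Kcnq5 it covered 3063, 3932 and 3169 bp in control and 4068, 3467 and 4010 bp in Ezh2ΔSET, with overlap. Kcnd3, the heart relative of Kcnd2, had K4me3 in 6 mice and K27me3 in control 2 alone. Kcnh6, also described in islets, had K27me3 in control 2 alone and K4me3 in none.

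Both marks were frequent within the windows of 6 members, though not always at one start. They were Kcna3, Kcnc2 and Kcnh8 among the voltage-gated genes, Kcnj8 among the inward rectifiers, Kcnk13 among the two-pore channels and Kcnip4 among the auxiliary subunits. Kcnh8, an ether-a-go-go-like channel of the nervous system, had both marks in all 6 mice, as did 131 of all 20807 genes (0.630%). Its K27me3 covered 2473, 6001 and 6001 bp in control and 5681, 9013 and 4197 bp in Ezh2ΔSET, and its K4me3 1549, 1453 and 913 bp and 1751, 1529 and 700 bp. Both marks at Kcnh8 overlapped between the genotypes. The K4me3 peak of Kcnh8 began 1718 to 1948 bp before the 5′ end and stopped 154 to 1026 bp before it in all 6 mice. A K27me3 peak overlapped it in 5 of the 6 mice, and in control 1 it lay in the gap between a pair of K27me3 peaks.

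Kcna3, the main voltage-gated channel of T lymphocytes, had K4me3 in 6 mice and K27me3 in 5, but the peaks divided the region. In 5 mice a K27me3 peak ended 1888 to 2658 bp before the 5′ end, and in 3 mice another began 710 to 1233 bp after it. The K4me3 peaks lay over the 5′ end between them, starting 360 to 603 bp before it in all 6 mice. The annotated start lay inside a K27me3 peak in 0 mice, and the marks touched in 1 of the 5 mice that had both. K4me3 ran on to 7002 bp past the 5′ end in control 2. Control 2 was also the mouse with K4me3 at 4 of 4 immune markers, and the part of immune cells in the width at Kcna3 was not tested.

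Kcnc2, a fast delayed rectifier of interneurons, had K27me3 in 6 mice and K4me3 in 5, and the peaks touched in 3. Its K27me3 was broad, with a widest peak of 10069 to 16658 bp. Over all members a gene had both marks in a mouse in 52 pairs of gene and mouse, and in 32 of them (61.5%) the peaks themselves overlapped. For all genes the share was 52.8%, and without control 2 the counts were 17 of 35 pairs (48.6%) for the members and 1149 of 2872 for all genes. Both marks at one gene were therefore often, but not always, at one place.

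**Figure D2:**
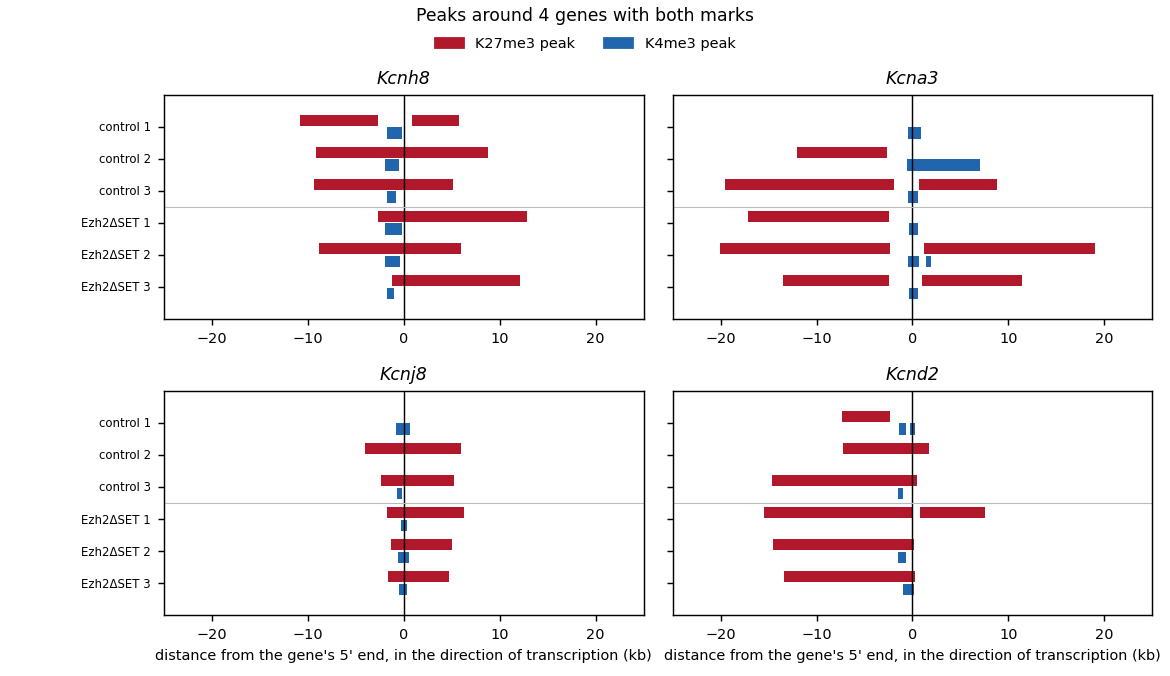
K27me3 peaks (red) and K4me3 peaks (blue) in each of the 6 mice against distance in kb from the 5′ end of Kcnh8, Kcna3, Kcnj8 and Kcnd2, in the direction of transcription; only peaks that overlap the windows of a gene's starts are drawn. At Kcna3 the K4me3 peaks lie over the 5′ end, beyond the K27me3 peak upstream and, except for a second peak of Ezh2ΔSET 2, short of the one downstream where there is one, while at Kcnh8 they lie before the 5′ end within or beside the K27me3 peak.

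The inward rectifiers fell mostly to one mark or to none. Kcnj16, Kcnj6, Kcnj5 and Kcnj8 had K27me3 in 5 mice each, and all 4 lacked it in control 1. Kcnj6 and Kcnj5 are subunits of the channels opened by G proteins in neurons and heart, and Kcnj16 is a subunit of kidney and glia. At Kcnj16, K27me3 covered 0, 8503 and 7009 bp in control and 5698, 7268 and 5871 bp in Ezh2ΔSET, and at Kcnj5 0, 6114 and 6114 bp and 2604, 5916 and 6114 bp. Kcnj16, Kcnj6 and Kcnj5 had K4me3 in no mouse. Kcnj5 lies 28.1 kb from Kcnj1, the renal secretory channel, which had neither mark in any mouse. Kcnj16 lies 42.3 kb from Kcnj2, a classic resting-potential channel of muscle and vessels, which had K4me3 in 6 mice over 2808 to 3214 bp and K27me3 in control 2 alone. Close neighbours could thus differ fully in mark.

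Kcnj8, the pore of the ATP-sensitive channel of pericytes and vascular smooth muscle, had both marks in 4 of the 6 mice. K27me3 covered 0, 6244 and 5581 bp in control and 4961, 4527 and 4906 bp in Ezh2ΔSET, and K4me3 covered 1448, 0 and 501 bp and 676, 1119 and 821 bp. Control 1 had K4me3 alone at Kcnj8 and control 2 K27me3 alone, so that the controls spanned the Ezh2ΔSET values for both marks. In all 4 mice with both marks the peaks touched.

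Kcnj9 and Kcnj10, whose starts are 11.9 kb apart, had K4me3 in 6 of 6 mice. A single K27me3 peak of 23086 bp (chr1:172324741-172347826) spanned both starts in control 2 only, the one case of a K27me3 peak shared by 2 members. At Kcnj9, a G-protein-gated subunit of brain, K4me3 covered 501, 629 and 626 bp in control and 796, 753 and 765 bp in Ezh2ΔSET, in each mouse by a peak 2355 to 3174 bp after the 5′ end. Ezh2ΔSET lay above control without overlap, by 186 bp (two-sided exact permutation test, p = 0.1, the smallest that 3 mice against 3 can give, which any pair of groups without overlap gives). Of all genes 6.19% had more K4me3 bases in Ezh2ΔSET without overlap. Kcnj4, a rectifier of heart and brain, had K4me3 in 5 mice and K27me3 in the remaining one, control 2. Kcnj11, the pore of the ATP-sensitive channel of beta cells, and Kcnj15, a rectifier of kidney and stomach, had neither mark in any mouse. Kcnj11 was so despite a CpG-rich start, with an observed to expected CpG ratio of 0.667.

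Among the two-pore channels, Kcnk10, a mechanically gated channel, was the one gene frequent for K27me3 alone, over 0, 9599 and 8188 bp in control and 5001, 6643 and 6417 bp in Ezh2ΔSET. Kcnk13, a background channel inhibited by halothane, had K4me3 in 6 mice and K27me3 in 5, over 2545, 6027 and 2866 bp in control and 0, 3117 and 489 bp in Ezh2ΔSET, and the groups overlapped. Kcnk9, an acid-sensitive channel, had K27me3 in 2 mice of each genotype, and Kcnk12, a silent relative of Kcnk13, in 1 of each beside K4me3 in 5 mice. Kcnk2, a channel opened by stretch and fatty acids with 10 annotated starts, had K27me3 over 0 bp in all 3 control mice and 0, 5309 and 6061 bp in Ezh2ΔSET. The controls were thus empty at Kcnk2, control 2 included, and both marked mice had a peak over the 5′ end.

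Kcnk1 and Kcnk6, of the weakly rectifying group, and Kcnk5, an alkaline-activated channel of epithelia also described in acinar cells, had K4me3 in 6 of 6 mice. At Kcnk5 the covered bases were 1971, 2096 and 2452 in control and 1961, 2005 and 2058 in Ezh2ΔSET, and the groups overlapped. Kcnk16, an alkaline-activated channel of islets whose start is 85.6 kb from that of Kcnk5, had neither mark in any mouse.

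Among the ion-activated channels, Kcnn1 and Kcnn2, small-conductance calcium-activated channels of neurons, had K4me3 in 6 of 6 mice. Kcnn3, of the same group, also had it in 6, over 646, 966 and 1143 bp in control and 501, 1497 and 501 bp in Ezh2ΔSET, with overlap. Kcnt1, a sodium-activated channel, had K27me3 in 3 mice and its relative Kcnt2 in 1. Kcnn4, the intermediate-conductance calcium-activated channel of lymphocytes and secretory epithelia, had K4me3 in control 2 over 2329 bp and in no other mouse. Control 2 is the mouse with K4me3 at all 4 immune markers, and whether these go together was not tested.

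The auxiliary subunits were split. Kcnab1, a cytosolic beta subunit that speeds inactivation, had K27me3 in 6 mice and K4me3 in none, while Kcnab2 and Kcnab3 had K4me3 in 6. K27me3 at Kcnab1 covered 4599, 3730 and 8606 bp in control and 8551, 9900 and 12002 bp in Ezh2ΔSET; control 3 lay just above the lowest Ezh2ΔSET mouse, and the groups overlapped (difference 4506 bp, exact permutation test, p = 0.2). Kcne3, a small membrane subunit that holds Kcnq channels of secretory epithelia open, had K4me3 in 6 mice, by peaks 1575 to 3059 bp after the 5′ end. There they covered the stretch before a further RefSeq start, with 10 CG, in 6 of 6 mice, while the stretch before the first start, with 3 CG, had neither mark. Kcne1, Kcne2 and Kcne4 had neither mark. Kcnip2, a calcium-binding subunit of the Kcnd channels, had K4me3 in 6 mice. Kcnip3 had K4me3 in 5, with K27me3 in control 2 alone. Kcnip1 had K27me3 within its windows in 3 mice. The stretch before a further RefSeq start of Kcnip1, outside these windows, met a K27me3 peak in 5 of 6 mice.

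Kcnip4, of the same group, had K27me3 in 6 mice, over 2050, 2835 and 5076 bp in control and 1574, 2814 and 6144 bp in Ezh2ΔSET, and the groups overlapped. In each of its 5 mice with K4me3 a peak lay 238529 to 240629 bp downstream, at an internal start. The K27me3 peaks of Kcnip4 reached across the 5′ end in 2 mice and began 309 to 1570 bp after it in the other 4, and in no mouse did its marks touch.

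CpG content at the 5′ end was then compared between these states. The observed to expected CpG ratio in 1001 bp around the 5′ end had a median of 0.516 for the members with K27me3, 0.552 for those with both marks, 0.660 for those with K4me3 and 0.248 for those with neither. Over all genes in the same states the medians were 0.247, 0.666, 0.720 and 0.177. The median of the members with K27me3 was above that of all genes with frequent K27me3, but equal to the 0.516 of all 85 members, and Kcnj16, at 0.210, lay below both. The 12 glutamate and GABA receptor genes frequent for K27me3 alone had a median of 0.633 and the 2 such calcium, sodium and HCN channel genes one of 0.441, so a value above that of all genes was not particular to the potassium channel genes. Counted as more than 50% GC with a ratio above 0.6, CpG-island-like starts were 34 of 85 members (40%) and 45.7% of all genes.

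**Figure D3:**
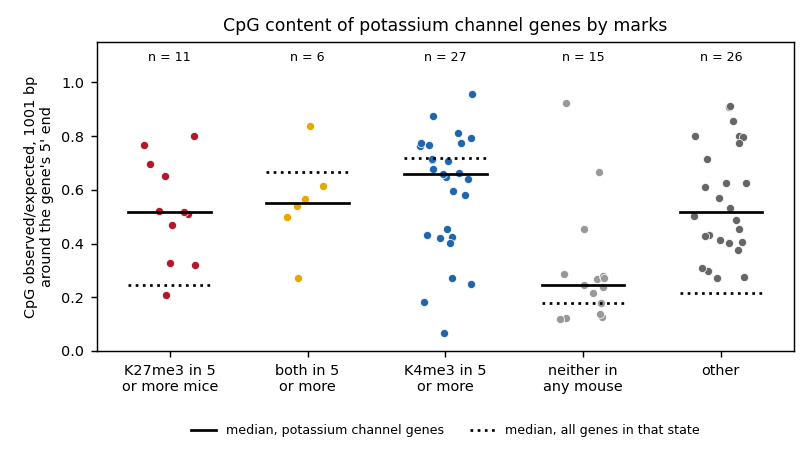
Observed to expected CpG ratio in 1001 bp around the 5′ end of each potassium channel gene (points), by the marks it carried in at least 5 of 6 mice; solid lines are the medians of the members and dotted lines those of all genes in that state. The member medians are 0.516 for K27me3 and 0.248 for neither mark, against 0.247 and 0.177 for all genes.

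The comparison between the genotypes asked what the loss of the Ezh2 SET domain did to the marks. K27me3 was present at 11, 49 and 18 members in control and 24, 21 and 28 in Ezh2ΔSET. Control 2 held the highest number and the other 2 controls the lowest, so that control spanned every Ezh2ΔSET mouse. The means were 26 ± 20.2 and 24.3 ± 3.51 (SD, n = 3 each).

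The share of members with K27me3 differed by -1.96 percentage points (Ezh2ΔSET minus control), and that of all genes by -1.91. Without control 2 the difference was 11.6 points, upwards and without overlap with the 11 and 18 members of the remaining controls, against 2.40 for all genes. One library therefore decided the direction, and with only 2 controls left no more than these values can be given. Of the 49 members with K27me3 in control 2, 22 (44.9%) had it in no other mouse, among them Kcnj2, Kcnk1 and Kcnd3, and 13 of these 22 were frequent for K4me3. For all genes the share seen in control 2 alone was 53.2%.

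K4me3 was present at 35, 31 and 34 members in control and 38, 42 and 42 in Ezh2ΔSET. Ezh2ΔSET mice lay above control without overlap, with 8.63 percentage points more members with K4me3 (40.7 ± 2.31 against 33.3 ± 2.08 members, SD, n = 3), while all genes differed by 0.525. Without control 2 the differences were 7.25 points for the members and -0.123 for all genes. The voltage-gated genes had K4me3 at 14, 13 and 13 of 38 in control and 15, 19 and 18 in Ezh2ΔSET, the inward rectifiers at 6, 3 and 6 of 15 and 7, 7 and 7, and the two-pore channels, which overlapped, at 6, 7 and 6 of 14 and 7, 7 and 8. The auxiliary subunits, at 6, 4 and 6 of 11 and 6, 6 and 6, and the ion-activated channels, at 3, 4 and 3 of 7 and 3, 3 and 3, overlapped as well, with a difference of 0 for both without control 2. The higher number in Ezh2ΔSET rested on narrow peaks: counting only genes with at least 1 kb under K4me3 the difference was 0 members. Both marks together were present at 5, 17 and 7 members in control and 6, 7 and 10 in Ezh2ΔSET, where control 2 was the highest. The share with both differed by -2.35 percentage points for the members and -2.18 for all genes. Without control 2 these differences turned to 1.96 and 1.02.

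**Figure D4:**
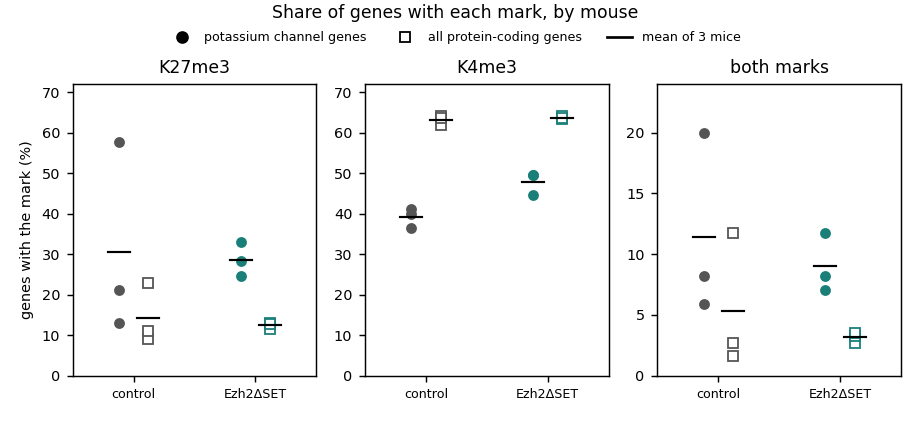
Percent of the 85 potassium channel genes (dots) and of all 20807 protein-coding autosomal genes (squares) with K27me3, K4me3 or both marks in each of the 6 mice, by genotype; bars are the means of 3 mice. Control 2 stands above the other controls for K27me3, and the 3 Ezh2ΔSET mice, with 38 to 42 members, stand above the 31 to 35 of control for K4me3.

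Single members were next taken as called when a mark was present in 3 of 3 mice of one genotype and 0 of 3 of the other. For K27me3 no member was called either way, and 0.202% of all genes gained and 0.00481% lost the mark in Ezh2ΔSET. For both marks together no member was called, against 0.0433% of genes up and 0.00961% down. By covered bases, 0 members had more K27me3 in Ezh2ΔSET without overlap (0.779% of genes) and 0 had less (0.101%).

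Without control 2, K27me3 was present in all Ezh2ΔSET mice and in neither control at 3 members, Kcna6 and Kcnk15 among them, against 0.663% of genes. Kcnk15, a two-pore gene related to the acid-sensitive channels, had K27me3 over 0, 6083 and 0 bp in control and 3985, 2747 and 6083 bp in Ezh2ΔSET. Only control 2 of the controls bore the mark there, as at Kcna6.

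For K4me3, 3 of 85 members (3.53%) were called upwards in Ezh2ΔSET, against 0.0721% of all genes, and none downwards (0.0384%). They were Kcnh7, Kcnj3 and Kcns3. These calls rested on narrow peaks too: 0 members were called with at least 1 kb covered or with equal numbers of the widest peaks per mouse, and 1 with a minimum peak width of 1 kb. By covered bases rather than presence, 5 members (5.88%), Kcnh7, Kcnj3, Kcnj9 and Kcns3 among them, had more K4me3 in Ezh2ΔSET than in control without overlap, near the 6.19% of all genes, and 0 had less (1.45%).

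Kcnh7, an ether-a-go-go-related channel of neurons, had K4me3 over 0 bp in each control mouse and 761, 501 and 501 bp in Ezh2ΔSET. The peaks lay between 78 bp before and 682 bp after the 5′ end, that of Ezh2ΔSET 1 reaching into the sequence shown and the other two after it, and the widest spanned 761 bp against the 501 bp of the narrowest peak listed. The means differed by 588 bp, given without a test, since the gene was picked for this difference. K27me3 was present at Kcnh7 in no mouse.

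Kcnj3, a G-protein-gated rectifier of atrium and brain, was covered over 0 bp in each control mouse and 1663, 501 and 644 bp in Ezh2ΔSET, by peaks from 5 bp before to 1657 bp after the 5′ end. Kcns3, a silent voltage-gated subunit, was covered over 0 bp in each control mouse and 501, 998 and 1148 bp in Ezh2ΔSET, 670 to 1817 bp after the 5′ end. K27me3 was absent from Kcnj3 in all mice and present at Kcns3 in control 2 and Ezh2ΔSET 1. The means differed by 936 bp at Kcnj3 and 882 bp at Kcns3, likewise without a test.

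Kcnf1, another silent subunit, had K4me3 over 0 bp in each control mouse and 0, 782 and 756 bp in Ezh2ΔSET, and so was not called. Kcnk3, an acid-sensitive two-pore channel, had K4me3 in 3 of 3 Ezh2ΔSET mice over 501, 630 and 644 bp and in control 2 alone of the controls, over 823 bp. The peak of control 2 lay 34086 bp downstream of the 5′ end at another start, while the Ezh2ΔSET peaks began 123 to 390 bp after the 5′ end. At the 5′ end of Kcnk3 itself no control mouse had K4me3. Without control 2, Kcnk3 joined Kcnh7, Kcnj3 and Kcns3, with 0.139% of all genes called.

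**Figure D5:**
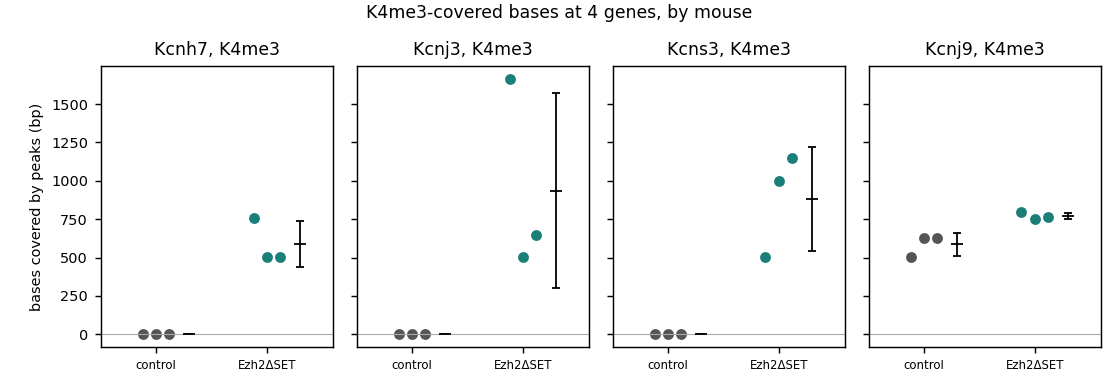
Bases of a gene's windows covered by K4me3 at Kcnh7, Kcnj3, Kcns3 and Kcnj9 in each mouse (points) with the mean ± SD of 3 mice per genotype. The control mice are at 0 bp for Kcnh7, Kcnj3 and Kcns3 and between 501 and 629 bp for Kcnj9, where the Ezh2ΔSET mice are between 753 and 796 bp.

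Other channel genes were read from lists that were likewise chosen by name. Of 14 related potassium channel genes outside the naming rule (the large-conductance channel Kcnma1 and its subunits, sulfonylurea receptors, Dpp6, Dpp10, Amigo1 and 4 Lrrc genes), 0 were frequent for K27me3, 6 were for K4me3 alone, and 2 had neither mark. K27me3 was present at 1, 2 and 1 of them in control and 3, 5 and 5 in Ezh2ΔSET, so that every control mouse lay below every Ezh2ΔSET mouse. The difference was 21.4 percentage points, and 23.8 without control 2, against -1.91 and 2.40 for all genes. Among them Kcnma1, whose start had K4me3 in 6 mice, had K27me3 in 0 control and 2 Ezh2ΔSET mice, and none of the 14 was called for either mark. Of 23 calcium, sodium and HCN channel pore genes 2 (8.70%) were frequent for K27me3 alone and 3 (13.0%) for both marks, against 12.9% and 7.06% of the potassium channel members, and 0 were called. Of 43 glutamate and GABA receptor genes 12 (27.9%) were frequent for K27me3 alone and 1 (2.33%) for both marks, and 1, Gabra5, was called upwards for K27me3 in Ezh2ΔSET. Over all genes 0.202% were called upwards for K27me3 and 0.0721% for K4me3. The share with K4me3 also rose in these lists, by Ezh2ΔSET minus control. It differed by 2.38 percentage points for the related genes, 5.80 for the calcium, sodium and HCN genes and 4.65 for the receptor genes. The genotypes overlapped in each list, and without control 2 the differences were 0, 0 and 1.16.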

How the data were processed

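The peak lists of K27me3 and K4me3 ChIP-Seq from 6 mice were used. Results for the other genotypes of the series, the planned tests that joined them, and some members by name are not reported here. Per the study's methods and the submitters' notes, the authors ran FastQC on the reads, mapped them with Bowtie2 (mm10), and had HOMER find histone-type peaks mouse by mouse relative to input (versions not given in the sources used here). They deposited the position of each peak, and the deposited score column holds 1 for every peak and was not used. Values are therefore not normalised for depth, and depth per library is unknown.

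Peaks were joined with GENCODE vM21 (GRCm38) windows of 3 kb on either side of every transcript start, with SciPy 1.17.1, pandas 2.3.3, NumPy 2.4.6 and matplotlib 3.10.9 under Python 3.11.15. Presence needed 1 bp, and covered bases are the union of peaks within the windows. A mark was frequent in at least 5 of 6 mice, a threshold chosen after the data were seen. Covered bases were tested by two-sided exact permutation of 3 mice against 3, whose smallest p is 0.1. Scripts were tested on simulated data. The labels number the mice 1 to 3 within a genotype and do not state that equal numbers share a litter or day. Correlations of same-numbered mice ran from -0.12 to 0.09 for K27me3 and from 0.05 to 0.23 for K4me3, so the numbers were not taken as pairs.

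Members and lists were chosen with earlier results of these data known. Genes were named by rule: in each family up to 6 with K27me3 and up to 4 with K4me3 in the most mice, members called 3 of 3 against 0 of 3, channels known from pancreas or vessels, and members sharing a K27me3 peak. Further members were named after their values were seen, where they complete a count or neighbour a named gene. Alternatives were other windows, a covered minimum, a minimum width, equal numbers of widest peaks, a window of 100 kb upstream, a replicate block and leaving out each mouse. Promoter sequences are from RefSeq.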

Additional observations from a re-analysis of the deposited data

How the results depend on the processing

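Most means, differences and counts moved by less than the spread between mice, or stayed within 1.5 times, under the alternatives. The exceptions follow, each in members. With a window reaching 100 kb upstream the mean number with K27me3 went from 25.2 to 44.2 and that with both marks from 8.67 to 16.2. The K4me3 results depended on narrow peaks. With at least 1 kb covered, with equal numbers of the widest peaks per mouse and with a minimum width of 1 kb, the mean number with K4me3 went from 37 to 26.3, 27.5 and 24, the difference of Ezh2ΔSET from control from 7.33 to 0, -1 (a reversal) and 1.33, and the members called 3 of 3 against 0 of 3 for K4me3 from 3 to 0, 0 and 1. With 6 of 6 mice as the threshold, chosen after seeing the data, 6 members in place of 11 were frequent for K27me3 alone and 1 in place of 6 for both marks. The cause of these changes was not tested, beyond the fewer narrow peaks that the width settings keep. A minimum width of 5 kb for K27me3 removes nothing.

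Leaving out 1 mouse at a time, the mean number of members with K27me3 ran from 20.4 to 28, with K4me3 from 36 to 38.2 and with both from 7 to 9.4. The difference of Ezh2ΔSET from control ran from -9.17 to 9.83 for K27me3, highest without control 2, from 6.17 to 8.67 for K4me3 and from -4.33 to 1.67 for both marks. Members called 3 of 3 against 0 of 3, or all against none, ran from 0 to 3 for K27me3, the 3 without control 2, and from 3 to 4 for K4me3. Without control 2 the states held 10, 7, 27 and 21 members. With the replicate number as a block, chosen after seeing the data, the differences in covered bases at Kcnab1 (K27me3, 4506 bp) and Kcnj9 (K4me3, 186 bp) gave p = 0.25 each, the smallest that an exact permutation of 3 pairs allows; the numbers do not pair the mice.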
